A study of Homo sapiens with 4 samples.

Results

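The interferon regulatory factors are transcription factors that share an N-terminal DNA-binding domain and recognise GAAA repeats in the promoters of interferon genes and interferon-stimulated genes. They were followed here through 8 genes, IRF1, IRF2, IRF3, IRF4, IRF5, IRF7, IRF8 and IRF9, out of 18639 genes named on the array. The members were taken by symbol from the platform annotation, which gave each of them 1 probe, so no level below rests on more than 1 spot per array.

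RNA came from HEK293, a human line immortalized from embryonic kidney, carrying a transgene for LGP2-4KR (4KR cells) or for LGP2 (LGP2 cells). LGP2, encoded by DHX58, belongs to the same helicase family as the RNA sensors RIG-I and MDA5 and modulates their signalling, and the labels do not define the abbreviation 4KR. The 4 groups, each of 1 array, were 4KR cells 12 h after lipid transfection of short poly I:C at 100 ng/ml, 4KR cells without stimulation, LGP2 cells 12 h after the same transfection, and LGP2 cells without stimulation. Short poly I:C is an artificial double-stranded RNA of low molecular weight that mimics viral RNA. The promoter of the transgenes, and whether each line is 1 clone or a pool, are not given in the sources used here. No array came from mock-transfected cells, so poly I:C, the transfection and 12 h in culture cannot be told apart, and in RNA from a whole culture a larger share of responding cells cannot be told apart from more RNA per cell.

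In cells that sense viral RNA, IRF3 is present before infection and is phosphorylated downstream of the adaptor MAVS, after which it enters the nucleus and helps to switch on IFNB1. Secreted interferon then signals through ISGF3, a complex in which IRF9 is the DNA-binding subunit beside a pair of STAT proteins, and IRF7, itself an interferon-stimulated gene, widens the interferon response. IRF1 is induced by NF-kB and interferon signalling and activates antigen presentation genes, IRF2 is its antagonist on many of the same sites, and IRF4, IRF5 and IRF8 are best known from lymphoid and myeloid cells.

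Promoter windows were at hand for 5 of the 8 members, IRF1, IRF4, IRF5, IRF8 and IRF9. Those of IRF1 and IRF9 are shown because both genes were higher after stimulation and both windows hold a GAS element, the site bound by STAT dimers. The sequences are from RefSeq, build GRCh38.p14, and run 5′ to 3′ along the gene from 250 bases before its start to 50 bases after, with matches to the searched motifs in capitals. The IRF1 window, on the minus strand at chr5:132490724-132491023, has the GAS match first and a match to the NF-kB consensus second.
IRF1: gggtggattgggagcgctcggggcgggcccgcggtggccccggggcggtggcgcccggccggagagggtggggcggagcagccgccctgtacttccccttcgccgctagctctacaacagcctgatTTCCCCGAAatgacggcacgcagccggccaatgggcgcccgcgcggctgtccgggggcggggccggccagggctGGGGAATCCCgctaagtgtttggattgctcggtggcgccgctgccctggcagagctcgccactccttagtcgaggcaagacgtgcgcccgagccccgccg
The IRF9 window, on the plus strand at chr14:24161015-24161314, has the GAS match alone.
IRF9: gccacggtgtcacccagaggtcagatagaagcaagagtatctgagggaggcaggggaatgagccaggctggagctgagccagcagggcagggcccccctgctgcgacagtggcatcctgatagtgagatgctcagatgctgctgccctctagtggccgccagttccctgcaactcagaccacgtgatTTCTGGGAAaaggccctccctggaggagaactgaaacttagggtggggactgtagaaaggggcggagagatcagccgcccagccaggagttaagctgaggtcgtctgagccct

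Both strands were searched for 3 motifs. GAS, written TTCNNNGAA, begins at base -124 from the gene start in IRF1 and at base -63 in IRF9, and 7.66% of the 35116 promoter windows of all genes hold it. The NF-kB consensus begins at base -50 in IRF1, where the same site matches on both strands, and 5.91% of all windows hold it. The core of the interferon-stimulated response element, GAAA and GAAA with NN between them, has no match in the 9 windows of these members and is held by 3.57% of all windows. The windows of IRF4, IRF5 and IRF8 have no match to any of the 3. The motifs do not overlap in the windows shown, and a match describes the letters of the window only.

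Signal on these arrays was read against 384 blank spots per array. A probe counted as detected when it passed the mean of the blank spots of its array plus 2 SD, which 83.2% to 89.2% of the 24460 gene probes did, so detection is a lenient criterion here. Ratios are log2 values after background correction with an offset of 50 and quantile normalization. That offset shrinks the ratios of dim probes, so intensities of the authors' deposited table, scaled to an array median of 25, are given beside them. All 8 named markers of HEK293 cells from the list used (among them LIN28B, NEFL and VIM) were detected on every array, while of 11 blood cell markers PTPRC and MS4A1 were detected on no array and the other 9 on all. The summed intensity of the blood cell list was 241.8 at 12 h and 212.1 at 0 h in 4KR cells, and 251.7 at 12 h and 208.4 at 0 h in LGP2 cells. CD79A alone gave 143.5 and 121.9 of these sums in 4KR cells, and 147.1 and 119.8 in LGP2 cells. The keratinocyte list summed to 321.7 at 12 h and 242.8 at 0 h in 4KR cells, and to 307.4 and 247.7 in LGP2 cells. The fibroblast list, with 2 to 5 of its 6 genes detected per array, summed to 124.1 and 107.9 in 4KR cells, and to 123 and 108.9 in LGP2 cells. The HEK293 list was lower at 12 h, at 709.9 against 803.7 in 4KR cells and 753 against 829.6 in LGP2 cells. DHX58 had intensities of 42.6 at 12 h and 22.8 at 0 h in 4KR cells, and of 51.0 and 41.4 in LGP2 cells. Where its probe lies relative to the transgene is not stated in these sources, so these values do not check the labels.

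The first question was which members were present before stimulation and which were higher 12 h after it. All 8 genes were detected on both unstimulated arrays, where 83.8% of gene probes passed in 4KR cells and 83.2% in LGP2 cells. The criterion was also met there by 9 of the 11 blood cell markers, so it does not set these members apart from other genes. Of the 8, 3 members, IRF1, IRF7 and IRF9, were at least 2-fold higher at 12 h in 4KR cells and in LGP2 cells. The other 5, IRF2, IRF3, IRF4, IRF5 and IRF8, had log2 ratios between -0.07 and 0.12 in 4KR cells and between -0.08 and 0.11 in LGP2 cells. Among all genes, 0.411% of 16564 were at least 2-fold higher in 4KR cells, 0.444% of 16675 in LGP2 cells and 0.374% of 16302 in both lines. No member was 2-fold lower in either line, as 0.00604% of all genes were in 4KR cells and 0.012% in LGP2 cells.

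**Figure D1:**
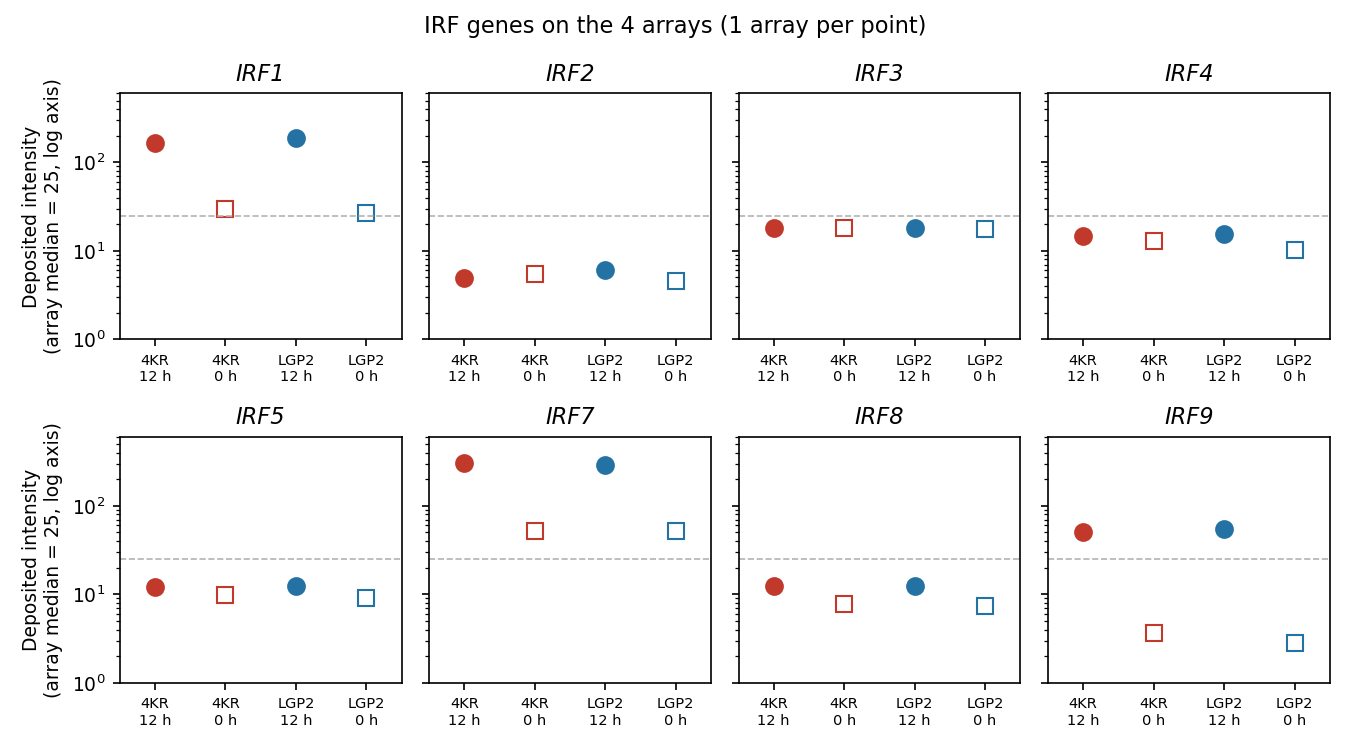
Deposited intensity of each IRF gene (log axis, array median 25 as a dashed line) on the arrays of 4KR cells at 12 h and 0 h and of LGP2 cells at 12 h and 0 h, with 1 array per point. IRF1, IRF7 and IRF9 stand apart at 12 h in both lines, and each of the other 5 genes stays below 2-fold between 12 h and 0 h in both lines.

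Of the 3 inducible members, IRF7, the amplifier of the interferon response, had intensities of 308.4 at 12 h and 51.5 at 0 h in 4KR cells. In LGP2 cells they were 288.8 at 12 h and 51.3 at 0 h. The unstimulated values of the 2 lines were thus alike, and both stimulated values were above both unstimulated ones. IRF7 was already well above background before stimulation, with its spot 79.9 blank SDs above the mean blank spot in unstimulated 4KR cells and 83.6 in unstimulated LGP2 cells. The log2 response (12 h minus 0 h) of IRF7 was 2.02 in 4KR cells, rank 26 from the top of 16564 genes, and 1.81 in LGP2 cells, rank 30 of 16675.

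IRF1, the activator of antigen presentation genes, had intensities of 163.9 at 12 h and 29.9 at 0 h in 4KR cells. In LGP2 cells they were 187.3 at 12 h and 26.5 at 0 h. Both stimulated values were far above both unstimulated ones. At 12 h the 4KR value was the lower of the lines, and at 0 h it was the higher. The log2 ratio was 1.66 in 4KR cells (rank 31) and 1.82 in LGP2 cells (rank 29).

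IRF9, the DNA-binding subunit of ISGF3, had intensities of 50.9 at 12 h and 3.70 at 0 h in 4KR cells. In LGP2 cells they were 54.9 at 12 h and 2.84 at 0 h. Before stimulation its spot was close to background, at 5.79 blank SDs above the mean blank spot in 4KR cells and 4.61 in LGP2 cells. On the unstimulated LGP2 array 1 of 384 blank spots was as bright as the IRF9 spot, and none of 96 negative control spots was. The log2 ratio with the offset was 1.27 in 4KR cells (rank 44) and 1.31 in LGP2 cells (rank 43).

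The order of the 3 by size of response turned with the treatment of background. With the offset of 50, IRF9 had the smallest ratio of the 3 in both lines, at 2.41-fold in 4KR cells and 2.48-fold in LGP2 cells. In the deposited intensities it had the largest, at 13.8-fold and 19.3-fold, against 5.48-fold and 7.08-fold for IRF1 and 5.99-fold and 5.63-fold for IRF7. Among all genes with deposited values, IRF9 then ranked 16 of 16102 in 4KR cells and 15 of 15984 in LGP2 cells. When each signal was moved by 2 blank SDs, the deposited ratio of IRF9 ran from 9.99-fold to 21.6-fold in 4KR cells and from 13.2-fold to 34.7-fold in LGP2 cells, outside the ranges of IRF1 and IRF7. Those of IRF1 were 5.22-fold to 5.77-fold and 6.72-fold to 7.47-fold, and those of IRF7 were 5.82-fold to 6.16-fold and 5.48-fold to 5.79-fold. These ranges cover the scatter of blank spots only, not the spread between cultures.

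**Figure D2:**
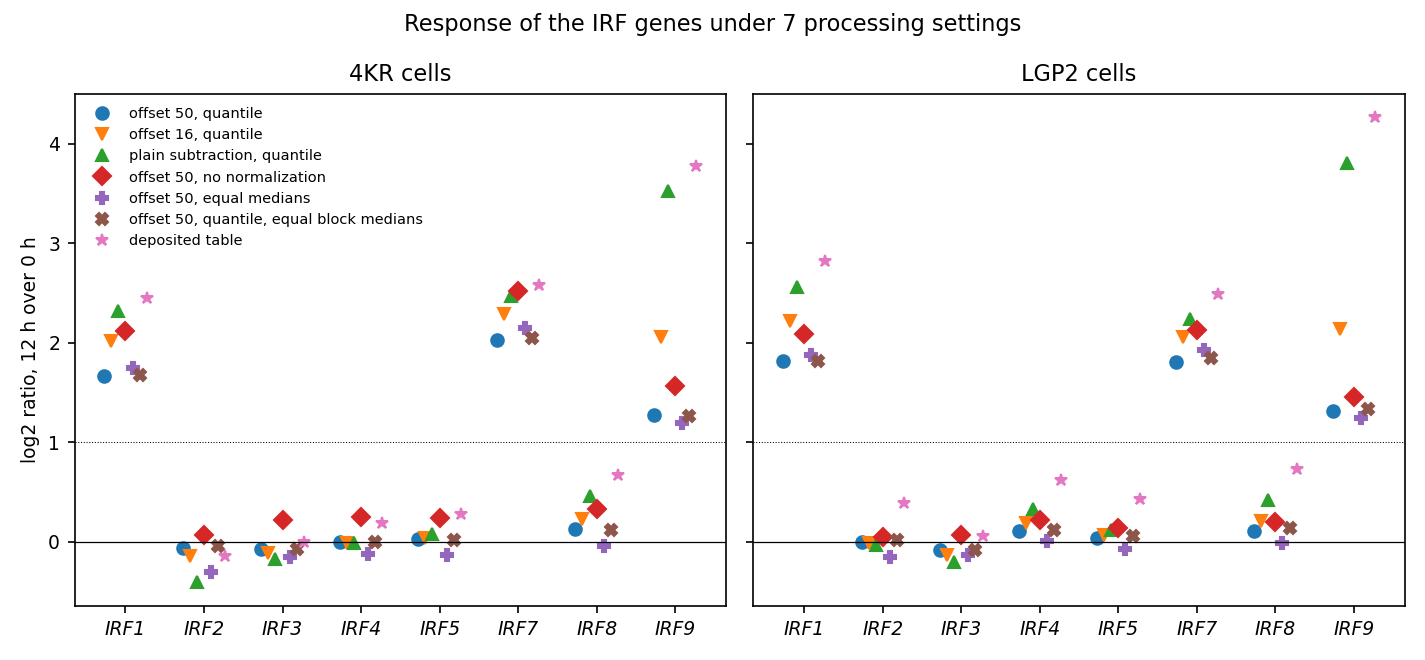
Log2 ratio of 12 h over 0 h for each IRF gene in 4KR cells (left) and LGP2 cells (right) under 7 processing settings, with a dotted line at 2-fold. IRF1, IRF7 and IRF9 lie above 2-fold under all 7, IRF9 moves most, and the other 5 genes stay below 2-fold in each.

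IRF3, the factor that MAVS signalling activates by phosphorylation, had nearly equal intensities on all arrays. They were 18.1 at 12 h and 18.1 at 0 h in 4KR cells, and 18.2 at 12 h and 17.5 at 0 h in LGP2 cells. Its log2 ratios were -0.07 in 4KR cells and -0.08 in LGP2 cells. RNA levels do not show phosphorylation or movement of the protein.

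IRF2, the antagonist of IRF1, was also near background, with its unstimulated spot 8.34 blank SDs above the mean blank spot in 4KR cells and 7.44 in LGP2 cells. Its intensities were 4.90 at 12 h and 5.40 at 0 h in 4KR cells, and 6.0 at 12 h and 4.58 at 0 h in LGP2 cells. The direction thus differed between the lines in the deposited values, at 0.907-fold in 4KR cells and 1.31-fold in LGP2 cells. Moved by 2 blank SDs these ratios ran from 0.574 to 1.45 and from 0.825 to 2.15, and the log2 ratios with the offset were -0.07 in 4KR cells and -0.005 in LGP2 cells.

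IRF4, IRF5 and IRF8, the members best known from blood cells, were dim but above background. IRF4 had intensities of 14.8 at 12 h and 13 at 0 h in 4KR cells, and 15.5 and 10.1 in LGP2 cells. IRF5 had 12.0 and 9.90 in 4KR cells, and 12.3 and 9.16 in LGP2 cells. IRF8 had 12.4 and 7.80 in 4KR cells, and 12.3 and 7.41 in LGP2 cells. All 3 had the higher deposited value at 12 h in both lines. The median over all genes of the 12 h over 0 h ratio in that table was 1.11-fold in 4KR cells and 1.19-fold in LGP2 cells. This is a median of ratios, since the array median itself is set to 25 on every array. The summed markers of blood cells, keratinocytes and fibroblasts were also higher at 12 h, while those of HEK293 cells were lower, as given above. The part of the median ratio and of these markers in the values of the 3 genes was not tested.

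IRF8 was the furthest from that median ratio among the 3, with deposited ratios of 1.59-fold in 4KR cells and 1.66-fold in LGP2 cells. Moved by 2 blank SDs these ran from 1.25-fold to 2.07-fold and from 1.28-fold to 2.18-fold. With the offset the log2 ratios of IRF8 were 0.12 in 4KR cells and 0.11 in LGP2 cells, at ranks 2854 of 16564 and 3165 of 16675. Those of IRF5 were 0.02 and 0.03, and those of IRF4 were -0.01 and 0.10.

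A limma fit with terms for line and time, in which the 2 lines stand in for replicates, gave the only test of single genes. It has 1 residual degree of freedom per gene before moderation, and adjustment was by Benjamini-Hochberg over 17085 genes detected on at least 1 array. IRF1, IRF7 and IRF9 rose with time, by log2 estimates of 1.74 ± 0.05 (SE, adjusted p = 0.0125), 1.92 ± 0.07 (adjusted p = 0.0148) and 1.29 ± 0.03 (adjusted p = 0.00989) in that limma fit. Each was higher at 12 h in 2 of 2 lines. With plain subtraction of the blank level instead of the offset, none of the 3 passed, each at an adjusted p of 0.126 in limma, although their estimates were larger. Among all genes 8.05% rose and 7.42% fell, so passing this test is far less selective than a 2-fold ratio. That split depended on scaling, with 1375 genes higher and 1268 lower here, 6927 and 21 without normalization between arrays, 2853 and 5897 with equal medians, and 1965 and 41 in the deposited table.

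None of the other 5 members passed. In the same limma fit IRF8 was nearest, at 0.12 ± 0.03 (SE, adjusted p = 0.0999), and it passed under 4 of 9 other settings, with adjusted p-values from 0.0303 to 0.806 over all of them. For IRF3 the estimate was -0.08 with a 95% interval from -0.17 to 0.02, for IRF2 -0.04 with an interval from -0.14 to 0.07, for IRF4 0.05 from -0.08 to 0.18, and for IRF5 0.03 from -0.06 to 0.12. All these intervals, which the offset narrows for dim probes, ended short of a 1.5-fold change.

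The second question was whether the lines differed. No member differed by 1.5-fold in its response, and none did between the lines at either time. The log2 response in 4KR cells minus that in LGP2 cells was 0.22 for IRF7, -0.15 for IRF1, -0.11 for IRF4, -0.06 for IRF2 and between -0.04 and 0.01 for IRF3, IRF5, IRF8 and IRF9. Without normalization between arrays this difference was 0.03 for IRF1, 0.03 for IRF4, 0.01 for IRF2 and 0.11 for IRF9. Their signs thus depended on scaling, and the median difference over all genes was then 0.13. Among 15738 genes detected on all arrays, 0.451% had a response at least 1.5-fold higher in 4KR cells and 0.432% at least 1.5-fold lower. Between the lines at 12 h, 0.0587% of all genes were 1.5-fold higher and 0.0352% lower in 4KR cells, and without stimulation 0.13% were higher and 0.341% lower.

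**Figure D3:**
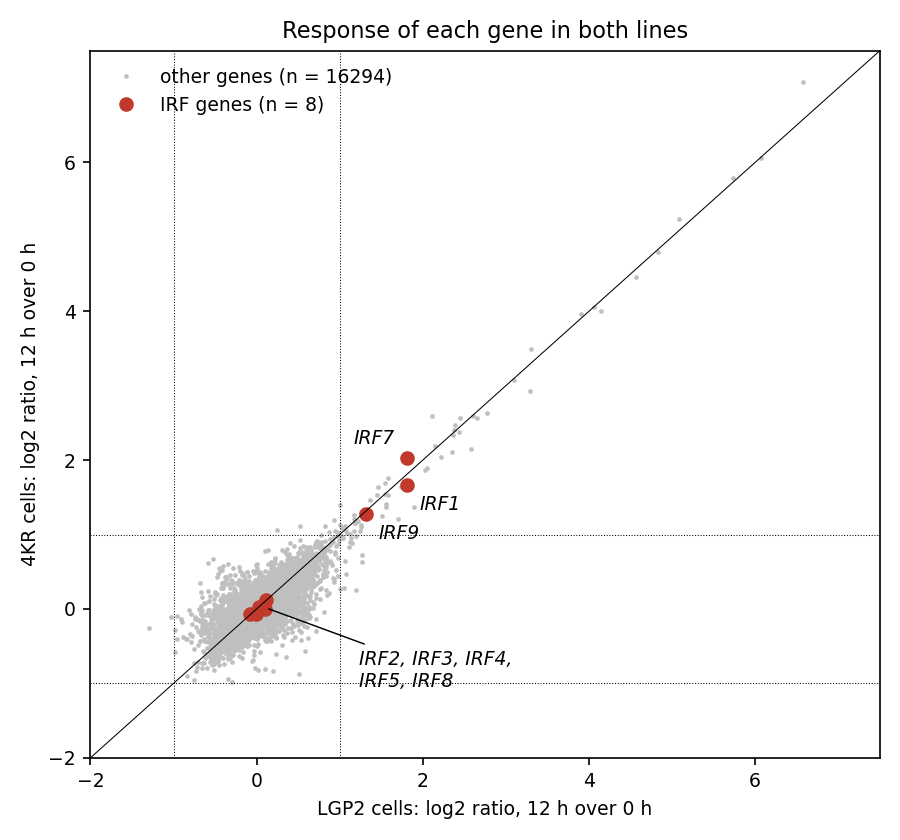
Log2 ratio of 12 h over 0 h in 4KR cells (vertical axis) against LGP2 cells (horizontal axis) for 16302 genes, with the 8 IRF genes in red, dotted lines at 2-fold and the line of equality. IRF1, IRF7 and IRF9 lie near that line above 2-fold in both lines, and the other 5 lie near 0.

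With the offset of 50, IRF7 had the largest difference of the 8. In the deposited table its difference of responses, 4KR minus LGP2, was 0.09 on the log2 scale. Those of IRF2 (-0.53), IRF9 (-0.49), IRF4 (-0.43) and IRF1 (-0.37) were larger in size, where the median over all genes was -0.11. With signals moved by 2 blank SDs, the ranges of the deposited ratios of IRF2, IRF9 and IRF4 overlapped between the lines, and those of IRF1 did not. With the offset, the log2 level of IRF7 at 12 h was 0.22 higher in 4KR than in LGP2 cells, rank 271 from the top of 17040 genes, and without stimulation by 0.01. The stimulated difference stayed above 0 in all 6 other settings of background and scaling, between 0.10 in the deposited table and 0.36 without normalization. Unstimulated differences between 4KR and LGP2 cells were above 0 for all 8 members, from 0.01 for IRF7 to 0.11 for IRF4, and the median of all genes was 0.01. Those of IRF3, IRF7 and IRF8 were at or below 0 in 1 or 2 of the 6 other settings. In the limma fit 0 of 8 members differed between lines, and 0 of 17085 genes did, with 832 genes at an unadjusted p under 0.05 and 0 members among them. Its line term is a mean over both times, so it does not test a difference of responses, which enters the error of the fit. The line term for IRF7 was 0.11 with a 95% interval from -0.09 to 0.32.

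The genes most like each inducible member were found by the distance between centred log2 values over the 4 arrays, among 17077 genes. IRF9 was closest to DDX60, an interferon-induced helicase, at a distance of 0.09, to IFNL3, a lambda interferon, and to IFI27. Their log2 ratios in 4KR cells were 1.31, 1.19 and 1.34. In LGP2 cells DDX60 was at 1.25 and IFI27 at 1.28, while IFNL3 was not above background at 0 h, so that it was at least 2.28-fold higher at 12 h. IRF7 was closest to PLSCR1, an interferon-induced scramblase, at 0.21, then to RND1 and USP18. IRF1 was closest to SNHG17, a small nucleolar RNA host gene, at 0.16, then to USP18, a protease for ISG15, and RND1. Likeness over 4 arrays is set mainly by the size of the response.

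Of 14 adaptors and kinases upstream of IRF3, IRF5 and IRF7, 0 were 2-fold higher in either line, with medians of 0.09 in 4KR cells and 0.08 in LGP2 cells against -0.01 for all genes in both. In the limma fit 8.05% of all genes rose and 7.42% fell, and 0 of the 14 fell. Of the 14, 3 rose, with limma adjusted p-values from 0.0238 to 0.0478. These were DDX3X, an RNA helicase that binds the kinases (0.44 in 4KR and 0.42 in LGP2 cells), TRAF6, a ubiquitin ligase (0.38 and 0.37), and CHUK, a kinase known to act on IRF7 (0.18 and 0.25). MAVS had ratios of -0.08 and -0.06, TBK1, the kinase of IRF3, 0.13 and 0.29, and the related kinase IKBKE -0.16 and -0.10. Without normalization between arrays 9 of the 14 passed as higher, where 40.5% of all genes did. With plain subtraction 0 of the 14 passed, as did 0 of all genes. With equal medians 6 of the 14 rose and 3 fell, where 2853 of all 17085 genes rose and 5897 fell.

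Of 12 partners and regulators, TRIM21, a ubiquitin ligase that acts on several of these factors, was at 1.03 in 4KR cells and 0.97 in LGP2 cells, and IRF2BP2, an IRF2-binding corepressor, at 0.32 and 0.38. Those 2 rose in the limma fit and 0 of the 12 fell, where 8.05% of all genes rose and 7.42% fell. TRIM21 had deposited intensities of 67.6 at 12 h and 16.5 at 0 h in 4KR cells, and of 68.3 and 16.7 in LGP2 cells. SPI1, the blood cell partner of IRF4 and IRF8, was at 0.01 and -0.02, and IRF2BP1, another IRF2-binding corepressor, at -0.04 and -0.01.

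Genes known as targets of these factors differed by group. Of 14 targets of IRF3 or IRF7, 11 were at least 2-fold higher in 4KR cells and 11 in LGP2 cells, with medians of 4.01 and 3.98, or 3.97 and 3.93 with genes not above background at 0 h set at their lower bound. The leading ones were IFIT1 (7.08 and 6.58), IFIT3 (6.07 and 6.07) and IFIT2 (5.79 and 5.73), RNA-binding antiviral proteins, and the chemokine gene CXCL10, which was not above background at 0 h and was at least 34.6-fold higher in 4KR cells and 31.7-fold in LGP2 cells. In the limma fit 13 of the 14 rose, and TNFSF10 was at -0.01 and 0.01.

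Of 18 targets of ISGF3, 11 were 2-fold higher in 4KR cells and 12 in LGP2 cells, with medians of 1.56 and 1.57, and 17 rose in the limma fit. This list shares ISG15, IFIT1 and IFIT3 with the one before it. ISG15, a ubiquitin-like modifier, was at 4.80 in 4KR cells and 4.83 in LGP2 cells, and IFI44L at 2.92 and 3.29. MX1 (0.64 and 0.65) and OAS1 (0.90 and 0.78), classic members of the group, stayed below 2-fold with the offset. MX1 had deposited intensities of 28.1 at 12 h and 6.8 at 0 h in 4KR cells, and of 28.1 and 5.70 in LGP2 cells. OAS1 had 50.7 and 12.4 in 4KR cells, and 48.5 and 12.7 in LGP2 cells. In these values both were over 2-fold higher at 12 h in each line.

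Of 14 detected targets of IRF1, 0 were 2-fold higher in 4KR cells and 2 in LGP2 cells, with medians of 0.15 and 0.20. These sizes depend on the offset. Of the 14, 3 were 2-fold higher in 4KR cells and 6 in LGP2 cells in the deposited values, with medians of 0.61 and 0.70. With plain subtraction of the mean blank spot the medians were 0.79 and 0.75. Among all genes, 538 in 4KR cells and 999 in LGP2 cells were 2-fold higher in the deposited values, against 68 and 74 with the offset. The medians of all genes were 0.15 and 0.25 in the deposited values, and -0.03 and -0.02 with plain subtraction. TAP1 had deposited intensities of 269.5 at 12 h and 115.2 at 0 h in 4KR cells, and of 279.2 and 93.7 in LGP2 cells. PSMB9, a subunit of the immunoproteasome, had 42.1 and 13.6 in 4KR cells, and 47.1 and 12.4 in LGP2 cells. With the offset, the 2 genes past 2-fold in LGP2 cells were TAP1, a peptide transporter, and B2M, the light chain of MHC class I, which were at 0.96 and 0.97 in 4KR cells and at 1.13 and 1.20 in LGP2 cells. In the limma fit 5 rose, namely TAP1, B2M, HLA-E, PSMB9 and WARS1, and 2 fell, the proteasome activator genes PSME1 and PSME2. Of all genes 8.05% rose and 7.42% fell in that fit. The ratios of PSME1 were -0.35 in 4KR cells and -0.32 in LGP2 cells, those of PSME2 were -0.26 and -0.25, and without normalization between arrays all 4 were above 0. No binding was measured here.

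**Figure D4:**
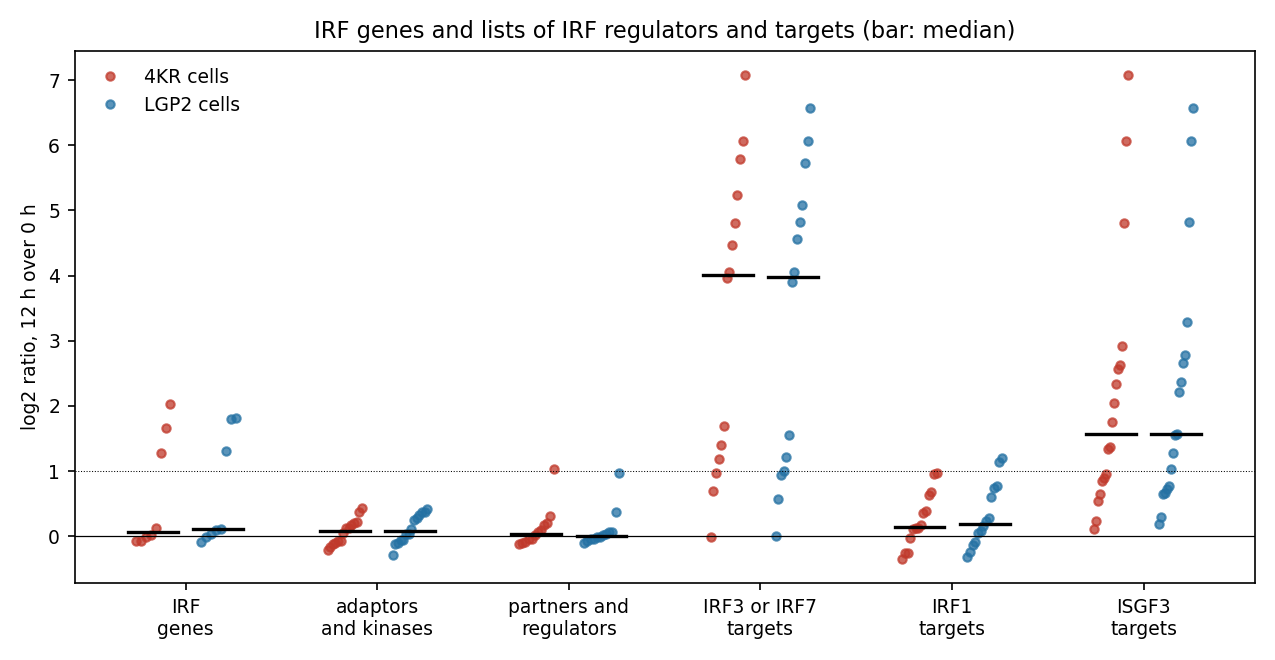
Log2 ratio of 12 h over 0 h for the 8 IRF genes and for the detected genes of 5 lists, in 4KR cells (left of each pair) and LGP2 cells (right), with a bar at each median and a dotted line at 2-fold. Targets of IRF3 or IRF7 have medians of 4.01 and 3.98, while adaptors and kinases lie between -0.29 and 0.44.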

How the data were processed

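Per the labels' protocols, total RNA was amplified to amino allyl aRNA and coupled to Cy5. The deposited scanner tables give, per the file headers, the median intensity of every spot, not normalized. The authors' deposited series table also holds an intensity, a straight line of the scanner value per array (largest residual 0.053) with its zero near the mean blank spot.

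Background was the mean blank spot of each array, corrected with limma 3.58.1 in R 4.3.3 (normexp, offset 50), then quantile-normalized across all 4 arrays and taken to log2. Probes of a gene were averaged, and 1 probe rejected by the scanner was left out. Of the gene probes, 21707 carried 1 gene symbol and 0 carried several, and 21675 matched a RefSeq gene identifier. A ratio was counted where the brighter array detected the gene. Members, gene lists and named genes (all members, the 3 most alike genes of each inducible one, up to 4 list genes past 2-fold in both lines) were chosen with earlier results of these data known. Alternatives were another offset, plain subtraction, no or median normalization, equal block medians, the deposited table, detection filters and a variance trend. The number of arrays limits the precision.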

Additional observations from a re-analysis of the deposited data

Results flagged for a closer look

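With the offset of 50 and quantile normalization, IRF4 was the only member whose log2 ratio of 12 h over 0 h had opposite signs in the lines, at -0.01 in 4KR cells and 0.10 in LGP2 cells. The 4KR response minus the LGP2 response was -0.11, and it was not tested, since each group is 1 array. In the deposited table the ratios of IRF4 were 0.19 in 4KR cells and 0.62 in LGP2 cells, and there IRF2 had opposite signs, at -0.14 in 4KR cells and 0.39 in LGP2 cells.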

How the results depend on the processing

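IRF1, IRF7 and IRF9 were at least 2-fold higher at 12 h in both lines under all 8 alternatives to the offset of 50 with quantile normalization, and the counts of members differing between lines by 1.5-fold stayed at 0. In the limma fit the count of members that rose was 3, and it was 3 or 4 under 8 of 9 alternatives. With plain subtraction of the mean blank spot it was 0, where 0 of 17085 genes passed in either direction, with 2417 higher and 2477 lower at an unadjusted p under 0.05; the estimates of IRF1, IRF7 and IRF9 were then 2.44, 2.36 and 3.67 and their adjusted p was 0.126. The fourth member, where it passed, was IRF8. With equal medians IRF2 passed as lower, at -0.23 (limma, adjusted p = 0.00971). Without normalization and with equal medians the prior degrees of freedom of the limma fit were infinite, so p-values there are not comparable with the others. No alternative reversed the direction of IRF1, IRF7 or IRF9. The estimate of IRF2 was above 0 without normalization (0.06) and in the deposited table (0.12). That of IRF8 was -0.02 with equal medians. The limma fit compares the times within each line, and the labels give no replicate numbers for a further block. For IRF9, and for the dim IRF2, IRF4, IRF5 and IRF8, signal over background limits the size of any fold change.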
